A study of Mus musculus with 8 samples.

Results

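In resting mouse cortical neurons 3290 binding sites of SMC1, mapped by ChIP-seq (sequencing of the DNA that an antibody to the protein brings down from chromatin), lay between genes, but not far from them. They were selected on the 2 peak lists and their positions alone: they are the peaks of the resting list that overlapped no peak of the list from NMDA-treated neurons by as much as 1 bp, whose midpoint lay inside no annotated gene, and whose midpoint was more than 1 kb and at most 50 kb from the nearest gene end. They make up 3290 of 12359 resting peaks (26.6%) and 3290 of the 11038 resting peaks without an NMDA overlap (29.8%). The absence of an NMDA peak chose the sites, so it is not a result about them: 89.3% of all resting peaks and 94.4% of all intergenic resting peaks at these distances had none. The NMDA list was much the shorter, with 1684 peaks.

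All cultures were wild-type cortical neurons from embryonic day 16 Swiss-Webster embryos, kept for 13 days in vitro. The resting cultures received no treatment, and the others received 50 µM NMDA for 10 min and were collected after 50 min in medium without the drug. Each condition had 2 SMC1 ChIP samples and 2 input samples, called biological replicates without a statement on separate litters, and the authors kept peaks that recurred between its ChIP samples, in 1 list. Peak positions do not measure expression, so the labelled cell type could not be checked against markers.

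SMC1 is a core subunit of cohesin, the ring-shaped complex that holds chromatin loops together and moves along DNA until it meets a barrier, often the zinc finger protein CTCF. Between genes, cohesin is known from loop anchors, from insulators and from enhancers, where the loading factor NIPBL is also found. In neurons, enhancer loops help to set the transcription of activity-dependent and cell identity genes.

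The peak sequences themselves were not used here, since no genome sequence was at hand. Sequences of annotated neighbours are therefore shown, first the promoters of 4 genes that had a resting peak on the promoter and a member of the set 3 to 6 kb upstream, so that both lie on the same side of the gene. They were chosen after their values were seen. The lines give the 250 bases before the start of each gene (RefSeq, GRCm38.p6), 5′ to 3′ on the gene's strand, and capitals mark a match, on either strand, to the core of the CTCF motif (CC, any 3 bases, AG, any 2 bases, then GGC). Foxo1 encodes a forkhead factor of insulin signalling, Hs3st3b1 a heparan sulfate sulfotransferase, Cebpb a leucine zipper factor and Arl4c a small GTPase.
Foxo1, chr3:52268087-52268336, plus strand: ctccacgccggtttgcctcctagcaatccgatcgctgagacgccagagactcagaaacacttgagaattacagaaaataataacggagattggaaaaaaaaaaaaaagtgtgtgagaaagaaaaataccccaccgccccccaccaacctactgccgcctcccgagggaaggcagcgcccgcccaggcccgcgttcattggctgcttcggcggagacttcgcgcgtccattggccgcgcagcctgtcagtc
Hs3st3b1, chr11:63922285-63922534, minus strand: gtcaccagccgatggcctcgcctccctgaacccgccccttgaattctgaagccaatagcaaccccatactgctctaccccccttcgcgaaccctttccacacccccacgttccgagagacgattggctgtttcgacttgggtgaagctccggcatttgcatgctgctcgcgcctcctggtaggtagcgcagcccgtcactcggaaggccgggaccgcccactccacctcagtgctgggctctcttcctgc
Cebpb, chr2:167688665-167688914, plus strand: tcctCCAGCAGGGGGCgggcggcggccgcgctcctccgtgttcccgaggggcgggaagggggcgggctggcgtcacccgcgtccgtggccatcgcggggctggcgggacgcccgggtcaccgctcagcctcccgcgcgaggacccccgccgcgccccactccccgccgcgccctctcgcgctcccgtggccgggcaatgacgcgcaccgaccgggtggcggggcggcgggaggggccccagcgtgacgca
Arl4c, chr1:88702192-88702441, minus strand: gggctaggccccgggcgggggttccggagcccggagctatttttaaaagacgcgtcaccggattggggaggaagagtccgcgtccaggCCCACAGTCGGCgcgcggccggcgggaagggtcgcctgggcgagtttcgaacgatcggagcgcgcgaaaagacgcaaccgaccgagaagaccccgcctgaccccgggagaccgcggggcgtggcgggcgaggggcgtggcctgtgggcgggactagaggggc

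Foxo1 and Hs3st3b1 had no match in this window, and Cebpb and Arl4c had 1 match each, which begins 246 and 162 bases before the start. At Hs3st3b1 the peak on the promoter had a summed −log10 p of 108 and the member 3.14 kb upstream 83.3. At Foxo1 the promoter peak had 38.3 and the member 5.65 kb upstream 83.4, so here the intergenic site was the stronger. Cebpb had 52.7 on the promoter and 70.1 at 3.47 kb upstream, and Arl4c 34.1 and 62.7 at 3.91 kb. An NMDA peak lay on the promoters of Hs3st3b1, Cebpb and Arl4c and not on that of Foxo1. This is not the usual case: of all resting peaks within 1 kb of a gene end, 723 overlapped an NMDA peak and 2860 did not. Over all 32851 promoters of 300 bases (250 before and 50 after the start) in the table the core was found in 8.61%, and over the 2330 promoters of genes nearest to a member in 9.23%. Of the 250 promoters that belong to such a gene and lie under a resting peak 21.2% held it, against 20.5% of all 3045 promoters under a resting peak. These shares cover the 50 bases after the start, which are not printed above. A match is a description of letters, not a measured binding site.

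A second small set of neighbours carries sequences of its own: for 17 members the nearest gene of any kind was a microRNA gene. That is 0.52% of members, near the 0.53% of intergenic sequence at these distances that had a microRNA gene nearest. MicroRNAs are short RNAs that find their targets through the seed, bases 2 to 8, shown here in capitals. The mature sequences of those with a known place in the nervous system or in growth control are as follows, on RefSeq GRCm38.p6.
mmu-miR-129-5p: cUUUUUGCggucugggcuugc
mmu-miR-7a-5p: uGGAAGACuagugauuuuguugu
mmu-miR-138-5p: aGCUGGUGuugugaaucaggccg
mmu-miR-137-3p: uUAUUGCUuaagaauacgcguag
mmu-miR-29b-3p: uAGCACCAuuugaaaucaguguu
mmu-miR-146a-5p: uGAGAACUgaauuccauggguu
mmu-miR-17-5p: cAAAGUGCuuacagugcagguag
mmu-let-7i-5p: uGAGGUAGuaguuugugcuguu
mmu-let-7d-5p: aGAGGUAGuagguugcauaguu

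Only the 2 let-7 members of these share a seed, GAGGUAG. The site at Mir129-1 lay 1.59 kb downstream, on chromosome 6 at 29023982 to 29024587, and had a −log10 p of 45.3 in the first and 12.3 in the second replicate column. Mir7-2, whose product is abundant in neurosecretory cells, had a site 2.48 kb downstream with 36.0 and 20.7. Mir138-1, whose product limits dendritic spine size, had a site 4.42 kb downstream with 21.2 and 29.8. The site 12.9 kb upstream of Mir29b-1 had 20.7 and 42.2, and that 25.6 kb downstream of Mir146, a gene for a brake on immune signalling, 26.3 and 28.0. The site 5.05 kb upstream of Mir137, a gene for a regulator of neuronal maturation, had 13.6 and 9.67, and that 1.45 kb upstream of Mir17, the first gene of a growth-promoting cluster, 8.36 and 10.8. The let-7 sites had 32.6 in sum 2.20 kb upstream of Mirlet7i and 25.9 at 7.32 kb downstream of Mirlet7d. These sites were below the median of the 17. Mir124a-3, which belongs to the most abundant microRNA family of neurons, had a site at 1.11 kb with a sum of 37.7. The 17 sites had a median sum of 40.0, against 32.2 in all 3290 members.

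Strength is given here as the authors' −log10 p of the peak caller, summed over the 2 replicates. It grows with library depth as well as with enrichment, and the depth of the libraries is unknown from the lists, so it orders sites within the resting list only. Members ran from 16.7 to 240 with a median of 32.2 and quartiles of 24.4 and 44.5. The first replicate column ran from 6.93 to 134 with a median of 15.9, and the second from 6.41 to 106 with a median of 15.6. The first column was the higher at 1712 of 3290 members, so neither replicate was generally stronger. Across members the columns had a Spearman correlation of 0.42, and the larger was 1.40 times the smaller at the median site and 7.46 times at most. Only peaks found in both replicates are listed, so this value describes the listed peaks and not the agreement of the libraries. Member widths had a median of 568 bp and ran from 219 to 2003 bp.

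**Figure D1:**
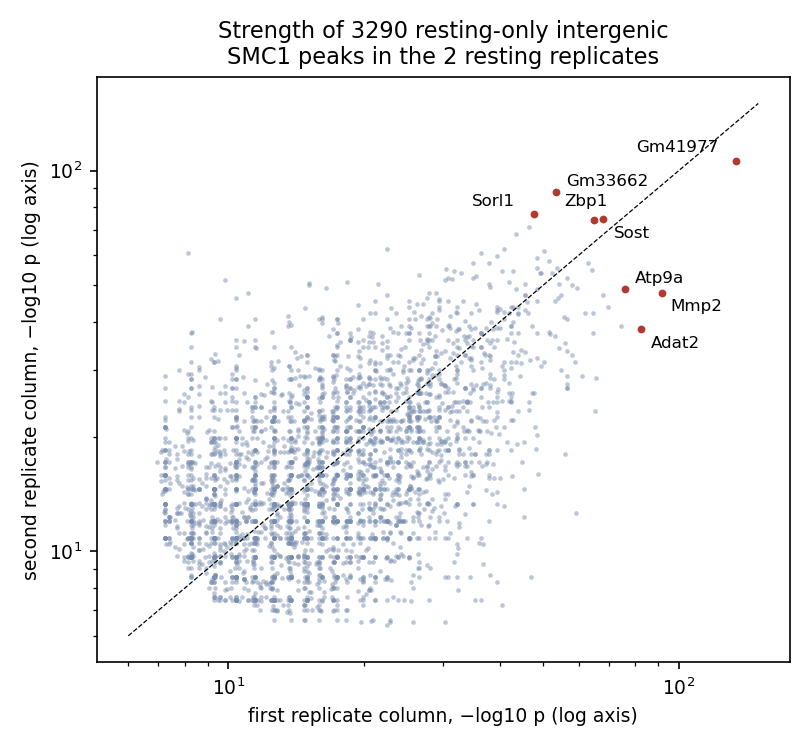
Each point is 1 of the 3290 members, with the −log10 p of the first resting replicate on the x axis and that of the second on the y axis, both on log axes, and a dashed line of equal values. The 8 strongest members are red and named by the nearest gene; the medians are 15.9 and 15.6.

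The strongest member lay on chromosome 1 at 155006465 to 155007059, with 134 and 106 in the replicate columns, 1.93 kb from the noncoding gene Gm41977 and 89.6 kb from Ier5, an early response gene. No other member reached 150 in sum. The next was on chromosome 11 at 101968428 to 101969228, 1.81 kb upstream of Sost, which encodes the secreted Wnt antagonist sclerostin, with 67.8 and 74.6. The site near the noncoding gene Gm33662 followed with 53.4 and 87.9, 25.6 kb from Meox1, a homeobox gene of the mesoderm. Next came sites near Mmp2, a matrix metalloproteinase gene (91.6 and 47.8), and Zbp1, a sensor of nucleic acids (64.7 and 73.9). The site 5.38 kb downstream of Atp9a, which encodes a phospholipid flippase, had 75.9 and 48.8. The site 13.9 kb downstream of Sorl1, a sorting receptor for the amyloid precursor protein, had 47.8 and 76.8 and was the widest of these at 1893 bp. Both columns were well above the list's medians at each of these sites.

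The following sites were of like strength. They lay near Adat2, a subunit of a tRNA deaminase (82.3 and 38.3), and near Prkce, a protein kinase C gene, beside the noncoding gene Gm5817 (62.9 and 57.1). Slc10a1, a bile acid transporter of the liver, had a site 13.8 kb upstream (64.1 and 54.8), and Foxf2, a forkhead gene of mesenchyme and pericytes, one 7.17 kb upstream (46.5 and 71.1). Sites near Rpl11, a ribosomal protein gene (67.8 and 47.1), Oat, an ornithine aminotransferase gene (74.6 and 39.1), Pax7, a paired-box gene of muscle stem cells (69.5 and 43.9), and Prcp, a serine carboxypeptidase gene (50.1 and 61.6), completed the 15 strongest. No single column fell below 38.3 in these 15. For 10 of them the nearest gene was protein-coding, for 4 a long noncoding RNA (lncRNA) gene and for 1 a pseudogene, and the nearest NMDA peak was 42.3 kb away or farther. Further sites above 100 lay 1.64 kb downstream of Rxra, the retinoid X receptor gene (51.6 and 57.7), and 16.6 kb downstream of Kcnn3, a calcium-activated potassium channel gene (59.4 and 49.3). Several of the neighbours, such as Slc10a1, Pax7 and Sost, are known chiefly from other tissues, and whether they are expressed in these cultures was not measured.

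Several members lay around Sost. Within 200 kb of the gene on either side 12 resting peaks were listed, 8 of them members. From left to right along chromosome 11 the members had sums of 102 and 17.8 in the interval between Etv4 and Meox1, 49.1, 41.6 and 141 between Meox1 and Sost, 142 between Sost and Dusp3, 40.2 next to Cd300lg, and 81.4 between Ppy and Pyy, a pair of pancreatic polypeptide family genes. The other resting peaks there were at gene ends, inside Mpp2 (87.0) or shared with the NMDA list (29.3).

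**Figure D2:**
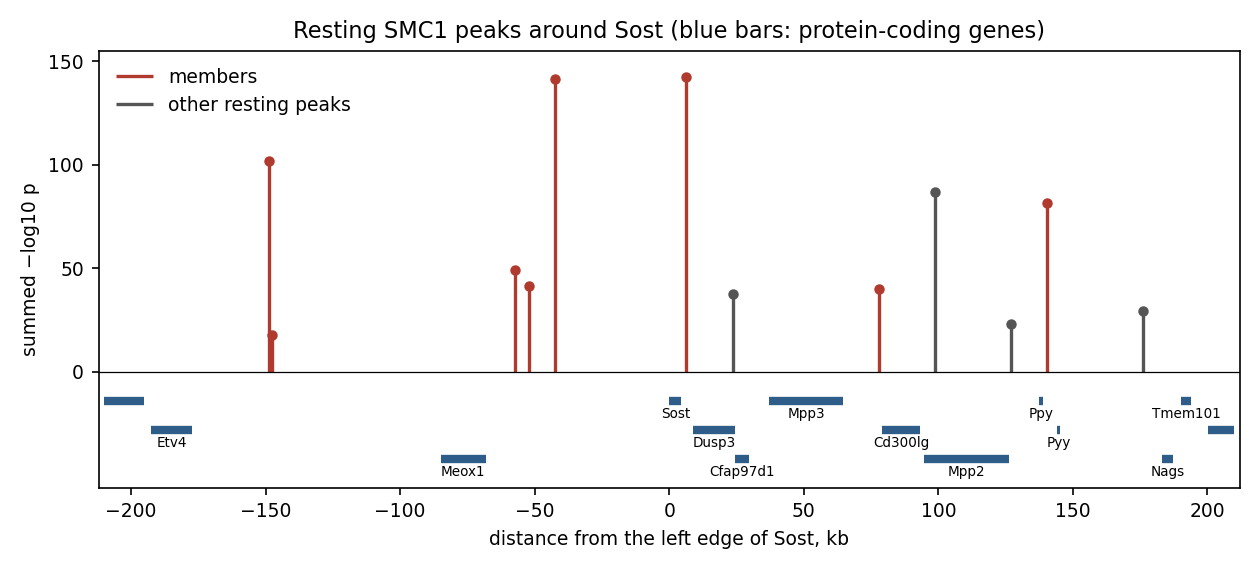
Vertical lines are resting SMC1 peaks within 200 kb of Sost, placed by distance in kb from the gene's left edge (x axis) and as tall as their summed −log10 p (y axis); members are red, other resting peaks grey, protein-coding genes blue bars. The 2 tallest members, 142 and 141, stand on opposite sides of Sost, at 6.37 and −42.5 kb.

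Members were set beside the position classes most like them, with no test, because peaks of 1 list are not replicates. Resting-only peaks over 50 kb from any gene had a median sum of 29.2 (n = 317 peaks), those inside genes 29.9 (n = 4571) and those within 1 kb of a gene end 26.2 (n = 2860), against 32.2 for members. A global irreproducible discovery rate (IDR) up to 0.01 was reached by 62.4% of members, 54.3% of desert peaks, 55.7% of peaks inside genes and 43.8% of gene end peaks, with 56.9% over the whole list. Among the 100 strongest resting peaks 14 were members, among the 500 strongest 107 (21.4%) and among the 1000 strongest 259 (25.9%). Members thus had the highest median of the resting-only classes, and made up a smaller share of the 100 strongest peaks than of the whole list (26.6%). The 195 intergenic peaks at the same distances that did overlap an NMDA peak had a median of 60.2 and a median width of 727 bp. Members were split from these peaks by the overlap itself, and the source of the difference was not tested.

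**Figure D3:**
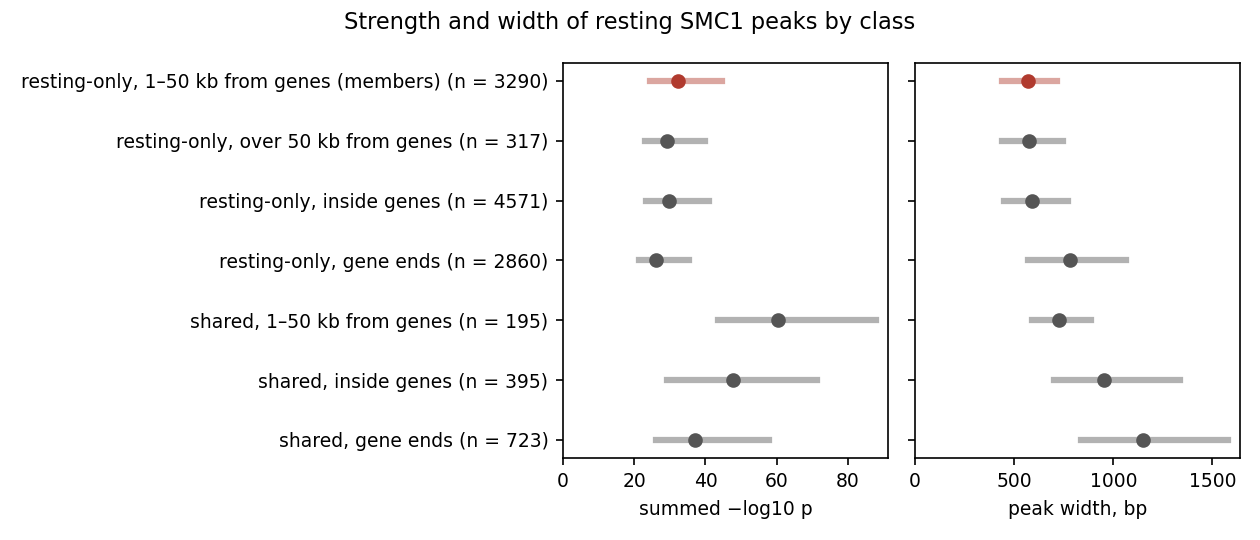
Dots are the median and bars the quartiles of the summed −log10 p (left) and of the peak width in bp (right) for classes of resting peaks, members in red. Members have a median of 32.2 and 568 bp, and the ranges of all resting-only classes overlap in both panels.

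Within the 1 to 50 kb that the choice of members allows, the median distance of the midpoint from the nearest gene end was 7.81 kb. Of 3290 members 1929 (58.6%, exact 95% interval 56.9 to 60.3%, counting error only) were within 10 kb of a gene of any kind. When the rule was applied with protein-coding genes alone, the set itself changed, to 3419 peaks. Of these 1627 (47.6%) were within 10 kb, so the majority was lost. There were 367 at 1 to 2 kb, 800 at 2 to 5 kb, 762 at 5 to 10 kb, 773 at 10 to 20 kb and 588 at 20 to 50 kb. Per Mb of intergenic sequence at that distance the number fell at each step, from 6.42 over 5.63, 4.42 and 3.51 to 1.85, with 3.62 over the whole range. Median strength moved little: the same bins had 31.5, 33.4, 32.3, 32.2 and 31.0, and widths stayed between 556 and 573 bp. The values on either side of the limits of the set overlapped. The last peaks at or under 1 kb had sums of 34.9, 19.1 and 34.1, and the first beyond it 19.1, 27.0 and 20.6. The last within 50 kb had 38.1, 58.7 and 17.7, and the first beyond 21.2, 51.1 and 22.8.

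The gene's strand, known for 27025 of 49997 genes through the promoter table, gave the side for 2086 members. Of these 960 (46.0%, exact 95% interval 43.9 to 48.2%) lay upstream of the start of the nearest gene and 1126 downstream of its end. Upstream sequence was 48.5% of the sequence nearest to these genes. The densities were 4.33 members per Mb upstream and 4.78 downstream, and for protein-coding genes 4.68 and 5.67. At 1 to 2 kb they were 7.71 and 7.62, and at 5 to 10 kb 4.28 and 6.02, which was the widest gap of the 5 bins. Strength was alike, with medians of 31.7 upstream and 32.8 downstream. When protein-coding genes alone defined the gaps, the upstream share was 50.8%, and the upstream share of sequence in those gaps was not computed. In gaps with both strands known, 326 members lay between divergent genes (5.84 per Mb), 714 between genes in tandem (4.81) and 358 between convergent genes (5.68).

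**Figure D4:**
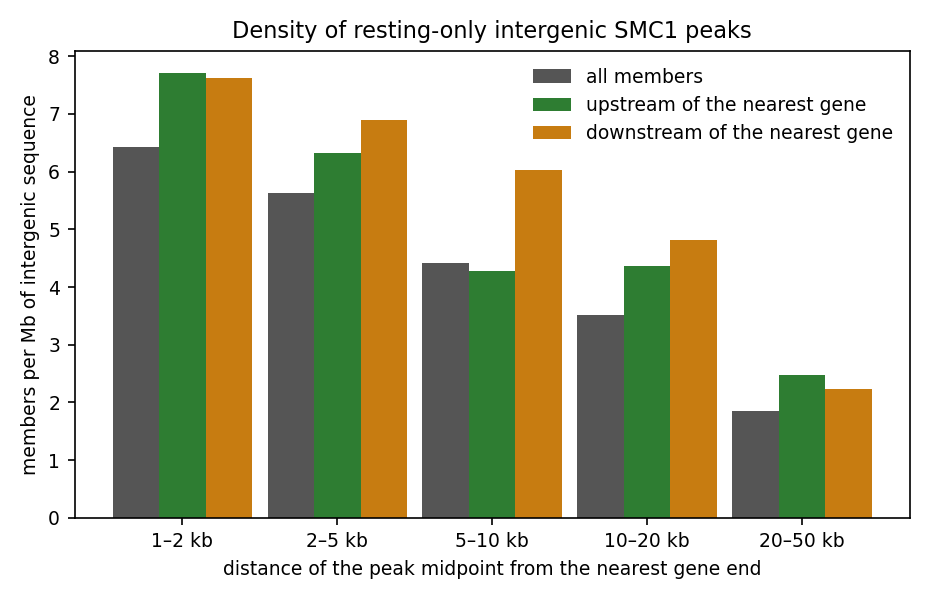
Bars give members per Mb of intergenic sequence (y axis) in 5 bins of distance from the nearest gene end (x axis), for all members and for those upstream or downstream of a nearest gene of known strand. The density of all members falls from 6.42 to 1.85, and the grey bars of all members include genes of unknown strand, whose surroundings held 2.66 per Mb.

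The nearest gene was protein-coding for 1775 of 3290 members, an lncRNA gene for 930 (28.3%), a pseudogene for 473 (14.4%) and of another kind for 112. Protein-coding neighbourhoods held 5.31 members per Mb, lncRNA neighbourhoods 3.70 and those of non-transcribed pseudogenes 1.76. By chromosome the density was highest on chromosome 11 with 6.62 per Mb and lowest among autosomes on chromosome 14 with 2.85. Chromosome X had 49 members (0.65 per Mb), with a median strength of 22.4, and held 0.92% of all resting peaks and 1.49% of members, so peaks of all classes were few there. Chromosome Y had 1 member.

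Most intervals with a member held only 1, and some members came in groups. Another member lay within 50 kb of 970 of 3290 (29.5%) and within 10 kb of 466 (14.2%). No like share was computed for other resting peaks, so grouping was not set apart from peak density. Of 35940 intervals between genes 2868 (7.98%) held a member, and 2501 of these held 1, 319 held 2, 41 held 3 and 7 held 4. Counting the nearest protein-coding gene at any distance, Ets1, which encodes a transcription factor of blood and vessel cells, had 5 members with sums of 25.9 to 60.5. Those lay 44.0 to 489 kb away, each with an lncRNA gene nearer. Camk1g, a calcium/calmodulin-dependent kinase gene of neurons, also had 5, of which 3 lay at 6.55, 12.8 and 15.8 kb with sums of 30.7, 27.6 and 29.0. Igsf11, a synaptic adhesion gene, Calcoco1, a coactivator and autophagy gene, and Elmod1 had 4 each, with the strongest at 56.6, 61.2 and 55.4. The melanocortin receptor gene Mc3r had 4 upstream between 21.3 and 41.3 kb, with sums of 22.3 to 60.5. The interval between the homeobox genes Tlx1 and Lbx1 held 4 in 75.7 kb, with 21.2 to 52.3. None of the sites in the groups named here exceeded 61.2.

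Of the 1593 protein-coding genes that were the nearest gene of a member, 285 (17.9%) had a resting peak within 1 kb of either end, where 14.3% of all 21900 protein-coding genes had. At an IDR up to 0.01 the shares were 9.95% and 6.70%. An NMDA peak at an end was found for 114 (7.16%), against 4.82% of all. These genes had a median length of 26.3 kb, against 17.1 kb for all, and length was not adjusted for. The NMDA list held only 1684 peaks. Of the members 78 (2.37%) had one of them within 5 kb and 411 (12.5%) within 50 kb, near the 2.25% and 11.2% of all resting-only peaks. The closest was 1 bp from the member 1.06 kb upstream of Cux1, a homeobox gene of upper cortical layers, so that site was counted as resting-only by a narrow margin. Next were members near Gas1 and Slc38a3, at 286 and 341 bp.

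Genes of chosen functions were then looked up as nearest protein-coding gene of a member, at any distance, where 12.2% of all 21900 protein-coding genes were. Lists were described by counts and set beside this share, with no test, and genes in wide intervals have more chance to be nearest to a member. Counts at an IDR up to 0.01, for which both peak lists were cut, are to be read against the 8.68% of all genes at that limit. A member's nearest gene is not shown to be its target.

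**Figure D5:**
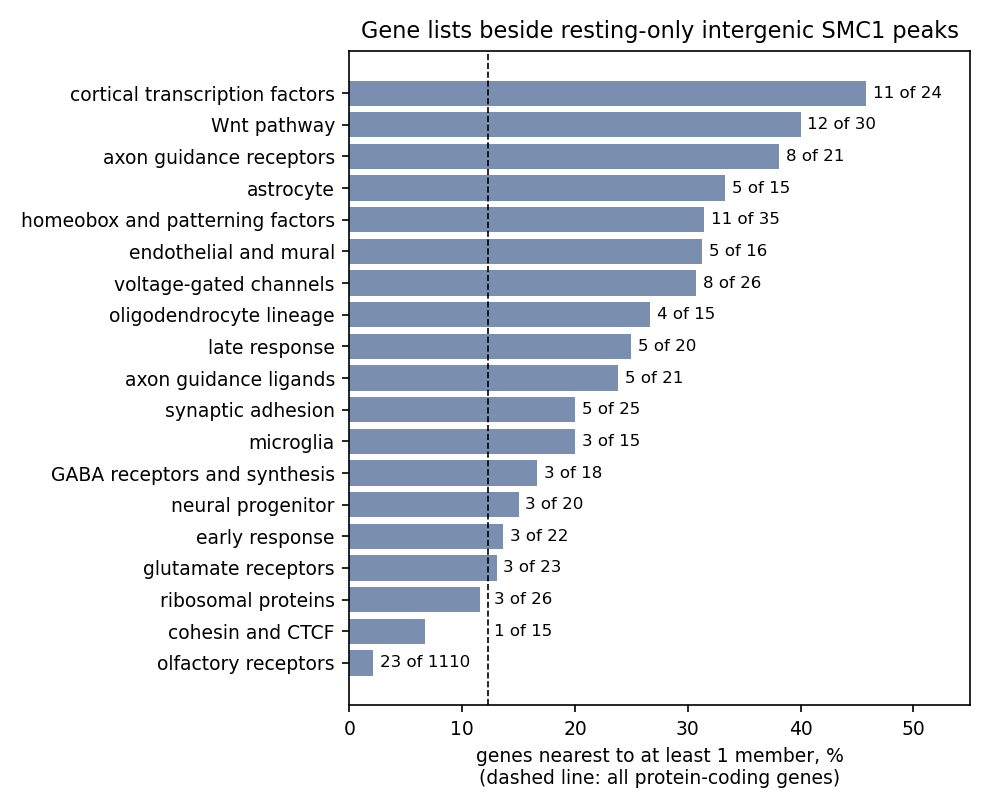
Bars give, for each gene list (y axis), the percentage of its genes that are the nearest protein-coding gene of at least 1 member (x axis), with the counts beside them and a dashed line at the 12.2% of all protein-coding genes. Cortical transcription factors, with 11 of 24, have the longest bar as drawn and olfactory receptor genes, with 23 of 1110, the shortest; at an IDR up to 0.01 astrocyte genes (5 of 15) stood above cortical factors (7 of 24).

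Among activity-dependent genes, those with a peak at an end outnumbered those nearest to a member. Over all 21900 protein-coding genes this also held, with 3123 (14.3%) against 2681 (12.2%). Of 22 early response genes 3 (13.6%) were nearest to a member, near the 12.2% of all genes. A resting peak at an end was found for 13 (59.1%). With an IDR up to 0.01 the count nearest to a member was 4 of 22 (18.2%), against 8.68% of all genes. Ier5, the protein-coding gene nearest to the strongest member, is not on this list. Npas4, a transcription factor gene selective for neuronal activity, had a member 2.42 kb downstream with 27.9 and 25.9 in the replicate columns, both above the medians. Fos, an AP-1 subunit gene, had one 15.0 kb downstream with 16.2 and 13.4, and Klf4 one at 12.2 kb and another at 119 kb. Of 20 late response genes 5 were nearest to a member and 10 had an end peak. The neuropeptide gene Sst had a member 7.41 kb upstream (26.5 and 53.2), the G protein regulator gene Rgs2 one 2.65 kb upstream (32.4 and 38.3) and the kinase gene Plk2 one 2.61 kb upstream (42.3 in sum). The sorting receptor gene Sorcs3 had one at 1.81 kb (28.5), and Pcsk1, a prohormone convertase gene, one at 93.0 kb.

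Among receptors and channels the counts were 3 of 23 for glutamate receptors, 3 of 18 for GABA genes and 8 of 26 for voltage-gated channels, of which the first 2 are near the 12.2% of all genes. The glutamate receptor members were beside Grm4 (41.4 in sum), Grik3 (24.2) and Grm5 (22.4), and 1 of 23 was counted when only peaks of an IDR up to 0.01 were used. The GABA count stayed at 3 of 18 there, 16.7% against 8.68% of all genes. Among the GABA genes, Gad2, which encodes a GABA-synthesising enzyme, had a member with 35.4 in sum at 28.1 kb, and Gabbr2, a GABA-B receptor gene, had 29.9 at 5.01 kb. The channel genes Kcnma1, Kcnc1, Cacna1g, Kcnd2 and Kcnq5 had members within 5 kb with strongest sums of 21.8 to 46.6. Those of Kcnh7 and Kcna4 were 290 and 543 kb away. Synaptic adhesion genes had members in 5 of 25 cases, and in 3 at an IDR up to 0.01. Those at Nrxn3 (13.5 kb, 38.1), Ncam2 (24.8 kb, 30.7) and Nlgn3 (8.39 kb, 29.6) were near, and the strongest of Cdh2 was 377 kb away.

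Guidance genes were counted as ligands and receptors. Ligand genes had a member in 5 of 21 cases, beside the ephrin genes Efnb1 (1.03 kb, 41.8) and Efna2 (9.53 kb, 28.2), Slit3 (1.87 kb, 37.7), and the semaphorin genes Sema3c (1.15 kb, 24.5) and Sema3a (25.7 kb, 21.7). With a lower limit of 2 kb the count was 2 of 21, since several of these sites are close to the 1 kb limit. At an IDR up to 0.01 it was 6 of 21. Receptor genes had a member in 8 of 21 cases (5 at an IDR up to 0.01), the strongest 1.89 kb downstream of the netrin receptor gene Unc5b (37.9 and 24.0). The plexin gene Plxnc1 had 3, with 40.0 as the highest sum, and the neuropilin gene Nrp2 had 2, the stronger 6.23 kb upstream with 37.0.

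Genes of the Wnt pathway had a member in 12 of 30 cases, and the 2 strongest were beside secreted antagonists. After Sost came Dkk1, which blocks the LRP co-receptors, with a site 5.27 kb upstream that had 46.1 and 42.2 in the replicate columns. The antagonist genes Dkk3 (23.9 kb, 58.4 in sum), Sfrp1 (67.0 kb, 45.5) and Sfrp2 (1.42 kb, 32.7) had weaker ones. No site of a ligand gene exceeded 39.6. Wnt7b had 4, from 17.3 to 44.1 kb away with sums of 18.8 to 39.6, and Wnt3a and Wnt5b had 29.3 and 20.9. Of the receptor genes Fzd10 (78.2 kb, 58.6), Fzd4 (9.05 kb, 31.7) and Fzd8 (2.24 kb, 27.5) were counted.

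Of 24 cortical transcription factor genes 11 had a member. This was the highest share of the lists, but at an IDR up to 0.01 it was 7 of 24, below the astrocyte genes with 5 of 15. The cortical factors' members had a median of 28.5, below that of all members. Of these members 6 were more than 50 kb from the listed gene. The strongest were beside Lmo4, a LIM cofactor gene (37.1 kb, 69.9), and Neurod1, a proneural gene (42.8 kb upstream, 68.0). Sites close to a gene were those of Bcl11b, a factor of deep-layer neurons (2.14 kb upstream, 27.7), Id2 (4.76 kb upstream, 25.9) and Cux1 (36.6). Of 35 homeobox and patterning genes 11 had a member, with a median of 35.7. Pax7 had 3, at 25.2, 39.2 and 43.9 kb with sums of 113, 35.7 and 35.4. The site assigned to Irx1 (97.0) was 500 kb away, and those of Lhx2 (6.30 kb downstream, 66.7), Dlx5 (3.08 kb, 53.4) and Meis2 (5.13 kb downstream, 43.3) were near. Of these 35 genes 5 (14.3%) had a resting peak at an end, as did 14.3% of all protein-coding genes. Of the 24 cortical factors 9 (37.5%) had one. Of 20 neural progenitor genes 3 had a member, Gas1 (53.2), Hes1 (22.5) and Sox21 (18.1), all within 1.2 kb of the gene, so that none remained with a lower limit of 2 kb. With protein-coding genes alone as neighbours the count was 8 of 20, and at an IDR up to 0.01 it was 1.

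Markers of other cell types that a cortical culture can hold had members too. Of 15 astrocyte genes 5 had one, among them Aldh1l1 (12.7 kb upstream, 64.4), the connexin gene Gja1 (3.99 kb upstream, 48.0) and the glutamate transporter gene Slc1a3 (4.47 kb downstream, 36.3). Of 15 oligodendrocyte lineage genes 4 had one, led by Bcas1 (23.2 kb, 90.9), and of 15 microglia genes 3, led by Irf8 (39.8 kb, 58.3). At an IDR up to 0.01 these counts were 3 and 4 of 15. Of 16 endothelial and mural genes 5 had one and 0 had a resting peak at an end, which 14.3% of all protein-coding genes had. In a list of 16 genes this is a difference of few genes, and it was not tested. Foxf2 had a member on each side, 7.17 kb upstream (118) and 1.25 kb downstream (45.0), and the related gene Foxc1 had 2 upstream, at 5.12 and 13.9 kb (78.7 and 43.7). The platelet adhesion gene Pecam1 had 57.9 at 5.58 kb. Whether these sites come from neurons or from such cells was not tested.

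Genes active in every cell were near or below the share of all genes in the full peak lists. At an IDR up to 0.01 ribosomal protein genes stood at 11.5%, against 8.68% of all genes. Of 26 ribosomal protein genes 3 were nearest to a member, Rpl11 (16.8 kb), Rpl38 (31.6 kb at the closest) and Rps24 (149.5 kb at the closest). The list does not hold every such gene: Rps13, which is not on it, had a member 7840 bp downstream with 78.1 in sum. Of 15 cohesin and CTCF genes 1 had members, Smc3, which encodes the partner of SMC1 in the ring, with 66.6 at 21.4 kb and 27.6 at 3.13 kb. Of 1110 olfactory receptor genes, most of them silent in the cortex, 23 (2.07%) were nearest to a member and 1 had a resting peak at an end. The latter share was 0.09%, against 14.3% of all protein-coding genes.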

How the data were processed

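SMC1 ChIP-seq was made from 2 resting and 2 NMDA-treated cultures, each with input DNA. Groups and replicate numbers were taken from the sample titles. Per the submitters' processing notes, which give neither versions nor settings, the tools were BWA, MACS2, SAMtools, Trimmomatic and FastQC, on mm10 and GRCm38.p6. The authors deposited 1 headerless list per condition in the 20-column layout of the IDR tool. Each line of a deposited list holds a −log10 p for either replicate, a score that equals their sum (strength here), an IDR score up to 1000 and a −log10 global IDR, the lowest of which corresponds to 0.05. Peaks are thus those found in both replicates, and others were not analysed here. Library depths are unknown.

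Peaks were classed by midpoint against 49997 RefSeq genes of GRCm38.p6, of which 27025 have a strand in the promoter table. Density is members divided by the intergenic sequence that meets the same distance limits, assembly gaps included. Intervals are exact Clopper-Pearson at 95% and cover counting error over peaks only. With 1 list per condition no test over samples exists, and no p-value is given. The rule was tested on simulated peaks. Named genes are those beside the 15 strongest members, those with most members, up to 3 per gene list and the peaks next to the limits. Further names (promoters, microRNA genes, other list genes, the surroundings of Sost, the Tlx1 to Lbx1 interval, Rxra, Kcnn3, Mc3r, Rps13 and Slc38a3) were chosen after their values were seen, and not every gene the rule selects is printed. Some genes are not reported here. The members and all 18 gene lists were chosen with earlier results of these data known. The planned motif search in peaks needs a genome sequence and was not run. Python 3.11.15 with numpy 2.4.6, pandas 2.3.3 and scipy 1.17.1 was used.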

Additional observations from a re-analysis of the deposited data

How the results depend on the processing

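The number of members stayed within 1.5 times under every alternative run, from 2208 when only lines with an IDR up to 0.01 were used in both lists to 3509 with an upper limit of 100 kb. Of the 3290 members 2053 reach that IDR. The 2208 also hold peaks that overlap only a weaker NMDA peak, since the NMDA list was cut too. Of 57 comparisons of the 7 summary values with their alternatives 46 stayed within the interval of the value or within 1.5 times of the count. The other 11 were these. At an IDR up to 0.01 the median strength was 41.1, the median width 615 bp, the share with another member within 50 kb 22.9%, and the share of neighbouring genes with a resting peak at an end 9.95%; fewer peaks are listed there. With a lower limit of 2 kb the share within 10 kb was 53.4% and the share with another member within 50 kb 27.8%. With an upper limit of 100 kb the share within 10 kb was 55.0%. With protein-coding genes alone, where the rule gave 3419 peaks, the share within 10 kb was 47.6% and the share with another member within 50 kb 34.8%. From a single replicate column the median strength was 15.6 to 15.9, since the sum is then not taken. For the gene lists 136 of 144 counts stayed within 1.5 times. The exceptions at an IDR up to 0.01 were 1 of 23 glutamate receptor genes, 3 of 25 adhesion genes, 5 of 21 guidance receptor genes, 7 of 24 cortical factors and 1 of 20 progenitor genes, and the 3 at other settings stand in the report. Taking gene starts as 1-based positions, an alternative chosen after seeing the data, changed none of the 7 values.

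No paired analysis was possible because each condition has 1 merged list whose replicate columns carry no replicate number, and no result comes from a test over samples. The motif alternative was not run.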
